A study of Homo sapiens with 6 samples.

Results

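The transcripts of 10 genes of endoplasmic reticulum-associated degradation (ERAD) were examined in K562 cells, an established BCR::ABL-positive CML line that grows in suspension. They were taken by gene symbol from the deposited count table, which holds 24960 genes, and all 10 passed the filter on low counts that left 15095 genes for testing. The 10 genes are SEL1L, SYVN1 and HERPUD1 of the ubiquitin ligase complex, the derlins DERL1, DERL2 and DERL3, and the glycan-handling proteins EDEM1, EDEM2, EDEM3 and OS9. Total RNA of 3 libraries of the control group and 3 libraries of the hyperoside group was sequenced. Hyperoside is a flavonol glycoside (quercetin-3-galactoside), which the cells of the hyperoside group received at 2 mM. Both groups are wild-type K562 cells with no engineered allele, so every value comes from 1 cell line. Neither the length of treatment before RNA extraction nor a vehicle in the control cultures is stated in the sources used here, and the labels do not say whether the libraries of a group came from separate cultures. If they did not, the p-values measure only technical spread.

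ERAD removes proteins that fail to fold in the endoplasmic reticulum (ER). Mannosidase-like EDEM proteins trim the glycans of such proteins, the lectin OS9 reads the trimmed glycan and hands the client to SEL1L, and SYVN1 (also called HRD1) attaches ubiquitin on the cytosolic side. Derlins and HERPUD1 belong to the same membrane complex, and the ATPase VCP pulls the client out for the proteasome. Several of these genes are classic targets of the unfolded protein response (UPR), whose sensors ATF6, IRE1 (ERN1) and PERK (EIF2AK3) adjust ER capacity to load.

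The total counts on genes ran from 35613283 to 36754725 per library. Counts of replicates differed by more than counting error, with a chi-square per degree of freedom of 6.34 to 23.1 between libraries of a group. Both pairs that include control replicate 1 had the 2 largest values, 20.3 and 23.1, so results that this library decides are also given without it. The 8 erythroid marker genes listed for K562 were all expressed, with a summed FPKM (fragments per kilobase, counts scaled by gene length and library total) of 3221 to 4062 in the control group and 2201 to 2659 in the hyperoside group. Most of that sum came from the fetal globins HBG1 and HBG2, which fell by 0.87 and 0.80 on the log2 scale. The list did not move one way: 3 of its genes fell, KLF1 and LMO2 rose by 0.96 and 0.92, and GATA1, TAL1 and HBZ were not called. Megakaryocytic markers, which would mark the other line of the study, summed to at most 7.29 FPKM in any library, and GP1BA was at 0 in every library. Markers of plasma cells, a cell type rich in ERAD transcripts, summed to 4.03 to 4.17 FPKM in the control group and 8.48 to 9.49 in the hyperoside group. SDC1 gave nearly all of that rise, with 291 to 400 counts against 939 to 1109. JCHAIN, MZB1, TNFRSF17 and IRF4 had at most 6 counts in any library. The 7 stromal or epithelial markers summed to 477 to 523 FPKM in the control group and 488 to 504 in the hyperoside group. Nearly all of that came from KRT8, KRT18 and EPCAM, with control means of 266, 182 and 49.8 FPKM, and none of these was called. COL1A1, COL1A2, DCN and CDH1 had at most 0.76 FPKM in any library, and of them COL1A1 was called lower. The part of these markers in the results below was not tested, and in bulk RNA fewer cells of a type cannot be told apart from less RNA per cell.

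Promoter stretches of 3 of the ERAD genes and of SDF2L1, an ER-lumen protein of the same pathway, are shown because they carry the sequence elements to which the results return. They come from RefSeq on GRCh38.p14, where 8 of the 10 genes had a window of 250 bases before to 50 bases after the transcript start, and DERL1 and DERL3 had none. Each stretch is written 5′ to 3′ along the gene's strand and ends before any exon annotated for that gene in GENCODE 29. Exons of other genes were not checked against the stretches. Capitals mark an ERSE-II element (ATTGG, 1 base, then CCACG), the core CCACG of ER stress elements, or the sequence TGATGCAA that ATF4 dimers can bind, each read on either strand. HERPUD1 is shown on chr16:56931942-56932046 (plus strand), SYVN1 on chr11:65134560-65134659 (minus strand), EDEM1 on chr3:5187527-5187642 (plus strand) and SDF2L1 on chr22:21642082-21642201 (plus strand).
HERPUD1: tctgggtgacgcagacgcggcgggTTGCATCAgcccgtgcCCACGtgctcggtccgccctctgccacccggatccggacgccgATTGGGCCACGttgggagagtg
SYVN1: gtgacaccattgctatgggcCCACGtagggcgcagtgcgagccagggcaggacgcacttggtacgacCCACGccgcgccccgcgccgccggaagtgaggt
EDEM1: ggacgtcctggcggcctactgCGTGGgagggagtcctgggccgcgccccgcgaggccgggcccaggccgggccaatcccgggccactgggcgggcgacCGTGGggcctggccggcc
SDF2L1: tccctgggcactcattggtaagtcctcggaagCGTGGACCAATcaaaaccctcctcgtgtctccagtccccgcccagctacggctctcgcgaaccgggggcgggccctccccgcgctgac

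The comparison of the groups asks how hyperoside treatment altered each step of ERAD at the transcript level. All 3 genes of the ligase complex were lower in the hyperoside group, DERL3 was lower by the largest fold of the 10, and none of the lectins, DERL1 or DERL2 was called. With edgeR's quasi-likelihood test and Benjamini-Hochberg adjustment over all tested genes, 4 of the 10 genes were lower at an adjusted p under 0.05, against 23.2% of all tested genes. None was higher, against 22.1% of all tested genes. At an unadjusted p under 0.05, OS9 was the only one of the 10 above its control level, and it was called higher with DESeq2. HERPUD1 and DERL3 also fell by more than 2-fold, a threshold that 3.76% of tested genes passed downwards. The values of the groups did not overlap in 5 of the 10 genes, against 54.4% of all tested genes, so separation of the groups was no more frequent here than elsewhere. As a set, the 10 genes had a median log2 fold change of -0.22, and all tested genes had one of 0.0032. Without control replicate 1, 4 of the 10 genes were again called lower, and OS9 was called higher.

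**Figure D1:**
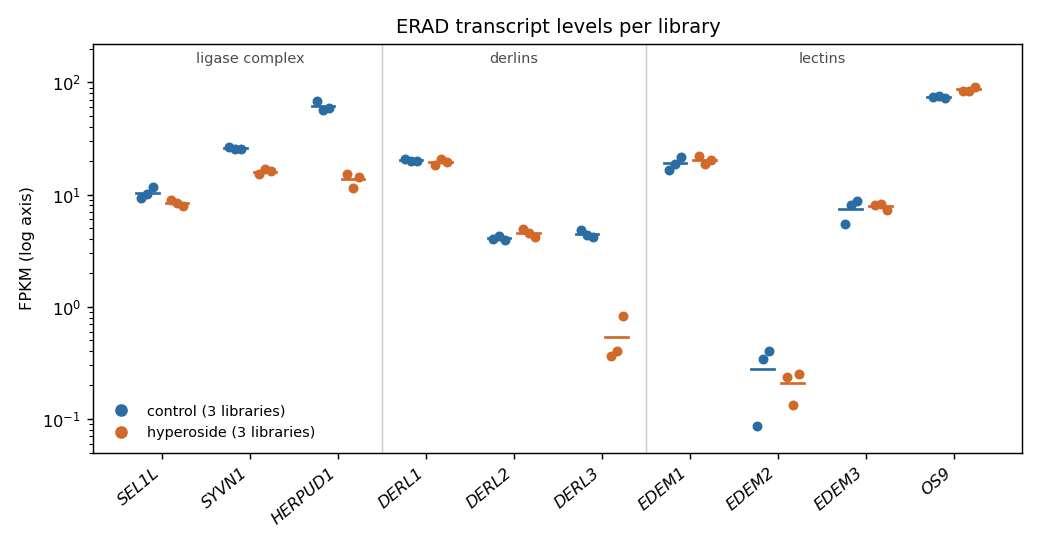
FPKM of each ERAD gene in the 3 control libraries (blue) and the 3 hyperoside libraries (orange), with 1 point per library, a bar at the group mean and a log axis. HERPUD1 and DERL3 show the widest gaps between groups, and the points of DERL1, DERL2, EDEM1, EDEM2 and EDEM3 overlap.

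HERPUD1, on chromosome 16 of GRCh38 from 56932142 to 56944864, encodes a membrane protein with a ubiquitin-like domain that joins the SYVN1 complex and is among the most inducible genes of ER stress. Its level in CPM, which is the count scaled to the normalized library size, was 205.4, 162.9 and 167.9 in control replicates 1, 2 and 3 and 42.2, 32.2 and 40.8 in hyperoside replicates 1, 2 and 3. Every hyperoside library lay far below every control library. The mean fell 4.65-fold, from 178.7 ± 23.3 to 38.4 ± 5.42 CPM (SD, n = 3 libraries each). The log2 fold change was -2.22 with a standard error of 0.11 and an edgeR adjusted p of 5.7e-11, which placed HERPUD1 at rank 18 of the 15095 tested genes by p.

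SYVN1, the ubiquitin ligase itself, lies on chromosome 11 from 65127279 to 65134519. It had 108.4, 100.3 and 98.2 CPM in the control replicates and 57.7, 64.4 and 62.4 CPM in the hyperoside replicates. The spread within a group was small beside the gap between groups. Its mean in the hyperoside group was 60.1% of the control mean (102.3 ± 5.38 against 61.5 ± 3.44 CPM, SD, n = 3 each). The log2 fold change of SYVN1 was -0.73 ± 0.08 (SE, edgeR adjusted p = 8.14e-07). In GENCODE 29, 6.48% of its exonic bases are shared with MRPL49 on the opposite strand and 7.24% with FAU on the same strand. Whether the counting used strand is not given in the sources used here. MRPL49 was not called, with a log2 fold change of -0.03 (edgeR adjusted p = 0.812).

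SEL1L, on chromosome 14 from 81471547 to 81533853, is the adaptor that stabilises SYVN1 and receives clients from the lectins. It changed least of the 3. Its CPM values were 83.6, 87.7 and 98.8 in the control group and 75.0, 70.2 and 67.1 in the hyperoside group. The highest hyperoside library therefore stayed below the lowest control library, and the SDs were 7.86 and 4.01 CPM. SEL1L was lower by 0.35 on the log2 scale (-0.35, 95% interval -0.52 to -0.17, edgeR adjusted p = 0.00241). No exon of SEL1L or HERPUD1 is shared with another gene in GENCODE 29.

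The 3 derlins are rhomboid-like membrane proteins that take part in moving clients across the ER membrane. DERL3 is the family member typical of secretory cells. It had 684, 599 and 569 counts in control replicates 1, 2 and 3 and 50, 56 and 113 counts in hyperoside replicates 1, 2 and 3. Hyperoside replicate 3 was thus at about the sum of the other two, yet it was still far under the lowest control library. On the CPM scale the mean fell 8.71-fold, from 17.5 ± 1.81 to 2.01 ± 0.98 (SD, n = 3 each). The fitted log2 fold change of -3.12 had a 95% interval of -3.60 to -2.65 and an edgeR adjusted p of 8.17e-09. Leaving out hyperoside replicate 3 gave -3.58. By fold change DERL3 was the 23rd lowest of all tested genes.

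The DERL3 locus is shared. DERL3 lies on chromosome 22 of GRCh38 from 23834503 to 23839006, and the RefSeq gene SMARCB1, a chromatin remodelling subunit, extends from 23786966 to 23838009. In GENCODE 29, 77.0% of the exonic bases of DERL3 are also exonic in SMARCB1 on the opposite strand. SMARCB1 moved the other way, with 30.6, 25.7 and 30.4 CPM in the control group and 43.8, 50.6 and 48.4 CPM in the hyperoside group. Its log2 fold change was 0.72 ± 0.10 (SE, edgeR adjusted p = 1.02e-05), and its groups did not overlap. How reads in the shared part were assigned is not given, and their part in either value was not tested.

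DERL1 was the most abundant derlin and DERL2 was expressed at a lower level, and neither was called. DERL1 had 71.4, 65.9 and 65.1 CPM in the control group and 58.9, 67.0 and 63.4 CPM in the hyperoside group, so the groups overlapped. Its log2 fold change of -0.10 had a 95% interval of -0.27 to 0.08 (edgeR adjusted p = 0.355). For DERL2, 614, 633 and 587 counts in the control libraries stood against 735, 685 and 624 in the hyperoside libraries, and the groups overlapped. Its interval, -0.12 to 0.33 around 0.11, leaves room for a change of either sign (edgeR adjusted p = 0.429). DERL2 shares 4.71% of its exonic bases with MIS12 on the opposite strand.

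The makeup of the derlin transcripts was compared next. Per length, DERL3 held 16.3%, 15.4% and 14.8% of the summed derlin FPKM in the control libraries and 1.53%, 1.57% and 3.35% in the hyperoside libraries. The share of DERL1 went from 70.4% ± 0.70 to 79.4% ± 1.54, and that of DERL2 from 14.1% ± 0.73 to 18.4% ± 1.99 (SD, n = 3 each). The summed level itself was 28.9 ± 0.85 FPKM in the control group and 24.7 ± 1.04 FPKM in the hyperoside group. The shares of a library add up to a whole, so a lower DERL3 share raises the combined share of the other derlins. The share differences are therefore not separate results. Mean DERL1 itself was 20.3 FPKM in the control group and 19.6 FPKM in the hyperoside group, and neither DERL1 nor DERL2 was called. For each of these 4 differences, in the shares and the sum, the groups did not overlap, and exact permutation (two-sided) gave p = 0.1. That is the smallest value that the 20 regroupings of 3 against 3 libraries allow, so 0.05 was out of reach.

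**Figure D2:**
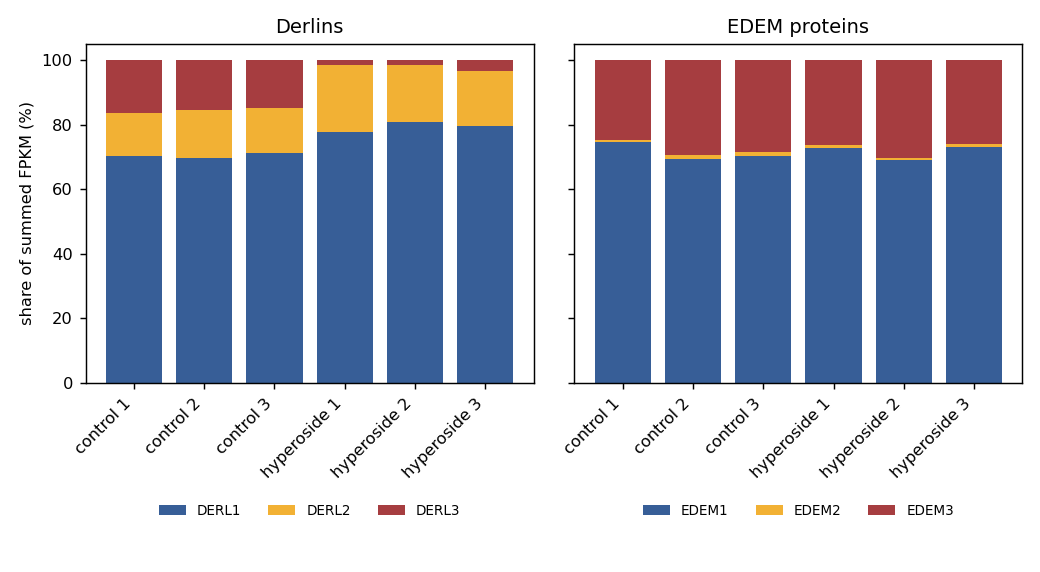
Share (%) of each derlin (left) and of each EDEM gene (right) in the summed FPKM of its family, as stacked bars from 0 with 1 bar per library. DERL3 shrinks from 14.8 to 16.3% in control libraries to 1.53 to 3.35% in hyperoside libraries, and the EDEM shares of the groups overlap.

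The genes that act on the client's glycan were not called. EDEM1, a mannosidase-like protein and a standard marker of the IRE1 branch of the UPR, had 122.1, 134.8 and 152.6 CPM in the control group and 151.5, 130.1 and 142.6 CPM in the hyperoside group. Its log2 fold change was 0.05 with a 95% interval of -0.13 to 0.23 (edgeR adjusted p = 0.661), an interval that does not reach the change seen for SYVN1 or HERPUD1. EDEM3, a related enzyme, was counted 1762, 2491 and 2715 times in control replicates 1, 2 and 3 and 2495, 2597 and 2277 times in hyperoside replicates 1, 2 and 3. Control replicate 1 was the low library, and without it the log2 fold change turned from 0.04 to -0.12, uncalled in both cases. The proportion of EDEM1 to EDEM3 overlapped between the groups. The EDEM1 to EDEM3 ratio of FPKM was 3.01, 2.35 and 2.48 in the control group and 2.75, 2.27 and 2.80 in the hyperoside group.

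EDEM2, which performs the first mannose trimming step, was listed near the detection limit in both groups. Its counts were 6, 23 and 27 in control libraries and 16, 9 and 17 in hyperoside libraries. With these counts the 95% interval of its log2 fold change ran from -1.72 to 0.81, and no difference was detectable. On chromosome 20 of GRCh38, EDEM2 spans 35115364 to 35147336 and lies wholly within the RefSeq readthrough gene MMP24-AS1-EDEM2, which spans 35115364 to 35278122. The table lists that gene separately, with 10, 3 and 5 counts in the control group and 14, 38 and 19 counts in the hyperoside group. It was called higher, with a log2 fold change of 1.91 ± 0.65 (SE, edgeR adjusted p = 0.0225). Added together, the 2 genes had 16, 26 and 32 counts against 30, 47 and 36 counts, and these sums overlapped. How reads that lie in both genes were assigned is not given, and their part in either count was not tested.

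OS9, on chromosome 12 from 57694132 to 57721557, is the lectin that delivers trimmed clients to SEL1L. It was the most abundant of the 10 transcripts and leaned upwards. Its values were 207.9, 206.9 and 192.7 CPM in the control group and 219.7, 222.6 and 243.0 CPM in the hyperoside group. The groups did not overlap, but the mean differed by a factor of only 1.13. With a log2 fold change of 0.17 (95% interval 0.02 to 0.32), its edgeR adjusted p was 0.0542. The adjusted p was 0.0150 without control replicate 1 and ranged from 0.0101 to 0.191 over all alternatives, with values under 0.05 in 6 of 13. An antisense gene shares 13.5% of the exonic bases of OS9 in GENCODE 29.

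**Figure D3:**
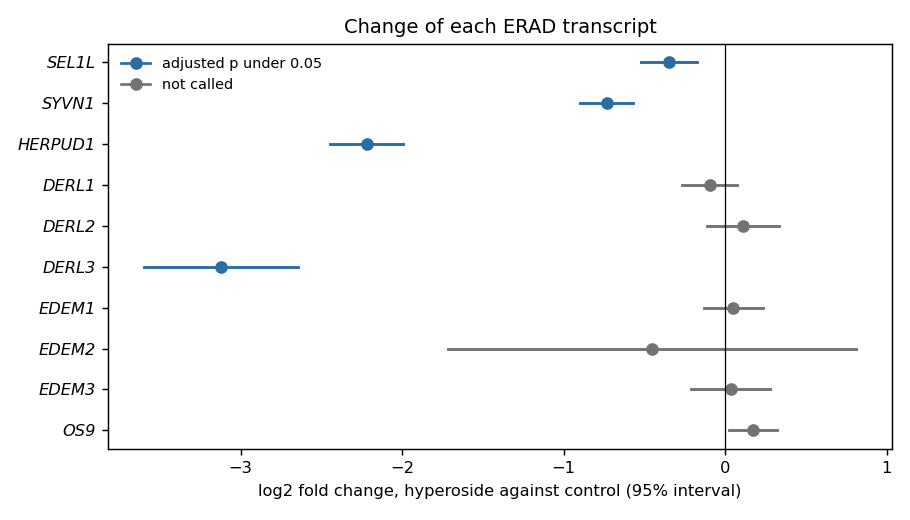
Log2 fold change of each ERAD gene in the hyperoside group against the control group, with its 95% interval from edgeR. Blue marks the 4 genes called at an adjusted p under 0.05, and the grey intervals of DERL1, DERL2, EDEM1, EDEM2 and EDEM3 include 0.

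Levels of different genes were compared per length, as FPKM. In the control group the order was OS9 (74.1), HERPUD1 (61.4), SYVN1 (25.8), DERL1 (20.3), EDEM1 (19.1), SEL1L (10.3), EDEM3 (7.42), DERL3 (4.48), DERL2 (4.08) and EDEM2 (0.28). The ranges of DERL1 and EDEM1 overlapped there, as did those of DERL3 and DERL2. In the hyperoside group OS9 stayed first at 86.5 FPKM and HERPUD1 moved from the second to the fifth place, at 13.7 FPKM, below EDEM1, DERL1 and SYVN1. DERL3 moved below DERL2, to 0.53 against 4.55 FPKM, without overlap. SEL1L and EDEM3 overlapped in that group, at 8.40 and 7.85 FPKM. The levels and places of DERL3 and EDEM2, and their family shares, rest on the reads assigned to them. How reads shared with SMARCB1 or MMP24-AS1-EDEM2 were assigned is not given, and their effect on these levels was not tested.

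Ratios within a library do not depend on how the libraries were scaled, and 7 of them were compared. Within the ligase complex the HERPUD1 to SYVN1 ratio of FPKM was 2.59, 2.22 and 2.34 in the control libraries and 0.9995, 0.683 and 0.895 in the hyperoside libraries. The FPKM of HERPUD1 thus went from more than 2 times that of SYVN1 to about the same or less. FPKM rests on 1 fixed length per gene, so this ratio does not count transcripts. The SEL1L to SYVN1 ratio went the other way, from 0.35, 0.40 and 0.46 to 0.59, 0.50 and 0.49. The OS9 to SEL1L ratio was 7.94, 7.53 and 6.22 in the control group and 9.35, 10.1 and 11.6 in the hyperoside group. None of these 3 ratios overlapped between the groups, nor did the DERL3 to DERL2 ratio, which went from between 1.03 and 1.21 to between 0.07 and 0.20. Exact permutation (two-sided) gave p = 0.1 for each of the 4, or 0.175 after Benjamini-Hochberg adjustment over the 7 ratios. The DERL1 to DERL2 ratio differed by -0.21 on the log2 scale, and the groups overlapped (exact permutation p = 0.2, adjusted 0.28). The other 2 ratios, EDEM1 to EDEM2 and EDEM1 to EDEM3, also overlapped, with exact permutation p-values of 0.6 and 1.

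Other genes of the pathway were taken from a list of 55 grouped by role, of which SEL1L2 was not analysed here and 54 were tested. On this list 15 genes fell and 10 rose (27.8% and 18.5%, beside 23.2% and 22.1% over all tested genes), and 29 were not called. The median log2 fold change of the list was -0.08. Without control replicate 1, 21 genes of the list were called lower and 13 higher. Over all genes that fit called 3618 lower and 3549 higher of 15541 tested. How near the list lies to the shares over all genes therefore depends on this library. Only SDF2L1 changed by more than 2-fold. It partners with the ER chaperone BiP, and its mean was 262.6 ± 39.2 CPM in the control group and 87.8 ± 8.98 CPM in the hyperoside group. The log2 fold change of SDF2L1 was -1.58 (edgeR adjusted p = 1.75e-09).

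Among the 9 genes of recognition and the ER lumen, ERLEC1 fell with SDF2L1. ERLEC1 is a lectin related to OS9, and its log2 fold change was -0.63 (edgeR adjusted p = 1.28e-05), beside 0.17 for OS9. The difference between the pair was not tested. FOXRED2, a flavoprotein that acts with OS9 and SEL1L, rose by 0.60, and UGGT1, the glucosyltransferase that senses incomplete folding, rose by 0.42. MAN1B1, UGGT2, DNAJB9, DNAJC10 and TXNDC11 were not called, with log2 fold changes of -0.21 to 0.10.

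Of 23 tested partners of the ligase and other ER ligases, 8 fell and 4 rose (34.8% and 17.4%, where all tested genes had 23.2% and 22.1%). FAM8A1, a cofactor of the SYVN1 complex, had a log2 fold change of -0.68 and the ubiquitin-conjugating enzyme UBE2G2 had -0.33. The risers were RNF170 (0.87), RNF139 (0.55), ERLIN2 (0.48) and RNF103 (0.45). RNF170 and ERLIN2 act together in the degradation of inositol trisphosphate receptors, while their partner ERLIN1 was not called at -0.07. HERPUD2, the paralog of HERPUD1, had 31.5, 32.4 and 30.5 CPM in the control group and 28.3, 31.0 and 27.8 CPM in the hyperoside group, and it was not called (log2 fold change -0.12, edgeR adjusted p = 0.322).

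Of 22 genes of extraction and cytosolic handling, 5 fell and 4 rose. These shares, 22.7% and 18.2%, are near the 23.2% and 22.1% of all tested genes. SELENOK, a selenoprotein that binds derlins and VCP, had the largest change of this subgroup, from 38.3 ± 3.56 to 20.4 ± 1.07 CPM (SD, n = 3 each) with a log2 fold change of -0.91 (edgeR adjusted p = 9.65e-07). GET4, of the BAG6 complex, had a log2 fold change of -0.51. VCP, the extracting ATPase, had -0.34, and its cofactors UFD1 and NPLOC4 were not called, at -0.08 and -0.03. The ubiquitin chain elongation factors UBE4A and UBE4B rose by 0.24 and 0.22.

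**Figure D4:**
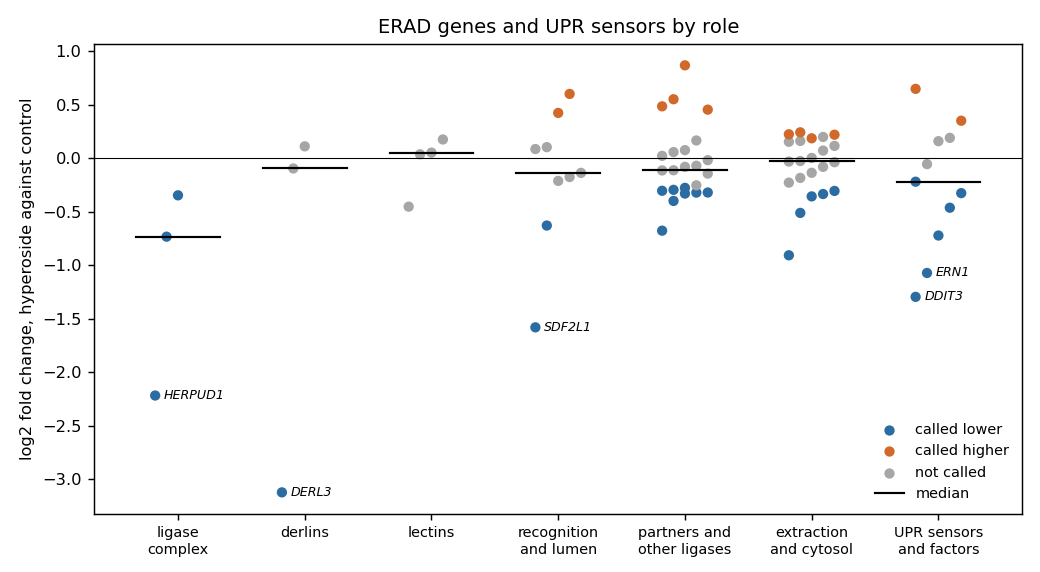
Log2 fold change, hyperoside against control, of each tested gene by role, with called lower genes in blue, called higher genes in orange, the rest in grey and a bar at each median. Apart from HERPUD1, DERL3, SDF2L1, ERN1 and DDIT3, all genes shown lie between -1 and 1.

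The sensors and transcription factors of the UPR were listed beside ERAD because they control several of its genes. Of 11 tested, 6 fell and 2 rose (54.5% and 18.2%, beside 23.2% and 22.1% of all tested genes). DDIT3 (CHOP) fell from 261.3 ± 22.01 to 106.4 ± 9.27 CPM and ERN1 (IRE1) from 66.95 ± 4.44 to 31.8 ± 2.58 CPM (SD, n = 3 each), with log2 fold changes of -1.30 and -1.07. Smaller decreases were found for ATF4 (-0.72), XBP1 (-0.46), CREB3 (-0.33) and ATF6 (-0.22), each with an edgeR adjusted p of at most 0.0263. CREB3L2 rose by 0.65 and MBTPS2, a protease that releases ATF6, by 0.35. EIF2AK3 (PERK), ATF6B and MBTPS1 were not called, at 0.19, -0.06 and 0.16. XBP1 counts include unspliced and spliced transcripts alike, so they carry no measure of IRE1 activity.

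The promoter windows were then searched, on both strands, for the elements that UPR factors bind. ERSE-II occurred in 19 of 35116 windows (0.0541%) and ERSE (CCAAT, 9 bases, then CCACG) in 27 (0.0769%). Among the 8 genes with a window, HERPUD1 alone had ERSE-II, 117 bases before its start, and none had ERSE or the UPRE sequence TGACGTGG. HERPUD1 was also the only one with TGATGCAA, on the minus strand 176 bases before its start, a sequence found in 0.866% of windows. The 5 letters CCACG, which both elements contain, were found in 6 of the 8 genes (SEL1L, SYVN1, HERPUD1, EDEM1, EDEM3 and OS9) and in 38.1% of all windows. Genes that fell and genes that were not called both carried it, as the printed stretches of SYVN1 and EDEM1 show with 2 copies each.

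Across the table, 14 tested genes had ERSE-II in their window, of which 10 were called lower and 1 higher, with a median log2 fold change of -0.51. They include HERPUD1 and SDF2L1, the genes with the most negative values of the 14. With ERSE there were 18 tested genes, of which 9 were called lower and none higher, with a median of -0.49. Of these, HSPA5 (BiP) and HSP90B1, both ER chaperones, had the most negative values, at -2.42 and -2.08. By comparison 23.2% of all tested genes were lower and 22.1% higher, and their median was 0.0032. With UPRE, 46 of the 144 genes tested fell and 28 rose, with a median of -0.01. With TGATGCAA, 37 of 86 fell and 17 rose, with a median of -0.17. These counts describe matches in a fixed window, and a match is not evidence that a factor bound there.

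**Figure D5:**
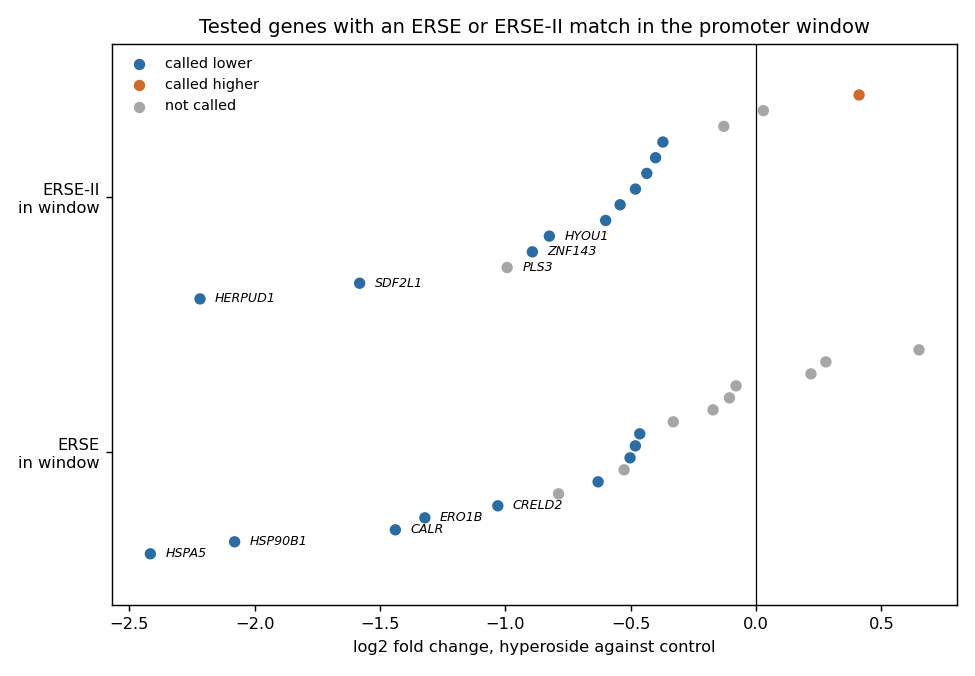
Log2 fold change, hyperoside against control, of the 18 tested genes with ERSE and the 14 with ERSE-II in the promoter window, ordered by value within each row and coloured by call. HERPUD1 is the lowest of the ERSE-II genes at -2.22, and 1 ERSE-II gene was called higher.

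Across the 6 libraries, the genes whose log2 CPM followed SYVN1 most closely among 11345 genes with a mean of at least 100 counts were FGFR4, SFT2D1, PEA15, SDF2L1 and PER1, with Pearson's r from 0.9991 to 0.9995. The 6 libraries form 2 groups that differ, so such values mainly restate the group difference. On the same measure HERPUD1 had r = 0.97, DERL3 0.97 and SEL1L 0.82, while OS9 had -0.77.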

How the data were processed

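The authors deposited raw counts per gene and FPKM values for 6 libraries. Per the labels, the processing notes name fastp, HISAT2, HTSeq and the build hg38, without versions or settings. The annotation and the use of strand are not given in the sources used here. One gene length per gene accounted for the FPKM in 100% of genes with counts. Counts were analysed with edgeR 4.0.16 in R 4.3.3. Genes were filtered by filterByExpr (minimum count 10, minimum total 15), scaled with TMM factors, and the groups were compared by quasi-likelihood F-tests. P-values were adjusted over 15095 genes, which held 99.95% of counts. Ratios and shares were compared on FPKM by exact permutation. As alternatives, DESeq2 1.42.0 (for the older DESeq of the study) and limma 3.58.1 were run. Of these steps, only the edgeR fit was tested on simulated counts. Python 3.11.15 and matplotlib 3.10.9 were used for tables and plots. The members, lists and motifs were chosen with earlier results of these data known, and the motifs and neighbouring genes also after the values were seen. Genes of the wider list were named by the smallest adjusted p, up to 8 in each direction, and others are given as ranges or for their link to a member. Single values of some listed genes are not reported here. Intervals of 95% come from the edgeR fit.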

Additional observations from a re-analysis of the deposited data

How the results depend on the processing

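Over 284 recomputed values, 268 were rated unchanged. For single genes this meant the same side of the threshold, and no called gene changed direction. EDEM1 and EDEM3, never called, changed sign when some libraries were left out and were still rated unchanged. List counts of similar size were rated unchanged, including 21 against 15 lower on the wider list when control replicate 1 was left out. Differences of ratios and shares had to stay within the replicate spread. For ratios the replicate block returns the same difference by construction, so those values test nothing. SEL1L, SYVN1, HERPUD1 and DERL3 stayed lower in all 13 alternatives, with an adjusted p of at most 0.0415. The number of the 10 genes called lower was 4 throughout, and 2 when a fold change above 2 was also asked. The number called higher went from 0 to 1, the gene being OS9, with RLE factors (log2 fold change 0.18), upper quartile factors (0.21), DESeq2 (0.18) and limma-trend on log2(FPKM + 1) (0.22) or log2(FPKM + 0.1) (0.22). Leaving out each library gave 0.14 to 0.20 for OS9 and 0 to 1 genes called higher. On the wider list, the fold threshold left 1 gene lower and 0 higher, and leaving out each library gave 14 to 21 lower and 8 to 13 higher. DERL3 ran from -3.58 to -1.85 on the log2 scale, the latter with FPKM + 1, which shrinks low values. In shares of counts rather than of FPKM, DERL3 differed by -14.7 percentage points, against -13.3. Replicate numbers did not pair the libraries: the deviations of same-numbered libraries correlated at -0.08, -0.03 and -0.03. A fit with the replicate block called 4 of the 10 genes lower and 0 higher, 15 and 8 on the wider list, and 3103 lower and 3026 higher over all genes. Upper quartile scaling moved the median of all genes by 0.04. The few counts of EDEM2 allow no statement on its direction, and why they are few was not tested.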
